A study of Mus musculus with 29 samples.

Results

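The 10 genes Apob, Mttp, Apoa1, Apoc3, Apoa4, Apoa5, Apoe, Lipc, Lcat and Scarb1, which build, remodel and clear plasma lipoproteins, were followed in whole mouse liver. They were chosen by gene name among the 55421 genes of the count table, and each name matched a single row. Bulk RNA-seq counts were analysed for 27 mice in 6 groups. Of the females 5 were young with vehicle, 4 old with vehicle and 5 old with HDM201, and of the males 4, 4 and 5. The old mice were labelled as C57BL/6J aged 20 months (females) or 24 months (males), and the young mice as C57BL6/N at 5 months. Age and substrain therefore cannot be told apart, and in the old groups sex and age cannot be told apart either. HDM201, a small molecule that blocks the binding of MDM2 to p53 and so stabilises p53, was given by oral gavage at 10 mg/kg each day for 14 days. Vehicle mice, young ones included, received phosphate-buffered methylcellulose. No transgene or deletion is named for any group. The study's methods give somewhat different ages from the labels.

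As background, hepatocytes secrete triglyceride-rich very-low-density lipoprotein built on apolipoprotein B, and the microsomal transfer protein encoded by Mttp loads lipid onto it in the endoplasmic reticulum. Apolipoprotein A-I, encoded by Apoa1, is the main protein of high-density lipoprotein. Apolipoproteins C-III, A-IV, A-V and E exchange between particles, where C-III restrains and A-V promotes clearance of triglyceride by lipoprotein lipase, and E binds the receptors that take up remnants. Hepatic lipase (Lipc) and lecithin-cholesterol acyltransferase (Lcat) are secreted into plasma, where the former hydrolyses lipid on remnants and high-density lipoprotein and the latter esterifies its cholesterol. The receptor SR-B1 (Scarb1) takes cholesteryl ester from high-density lipoprotein into the hepatocyte.

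Total counts ranged from 16485900 to 23570458 per mouse, with a median of 19149235, and the 10 genes took between 2.66% and 4.33% of them. Levels are given as CPM, counts scaled to a common library size by the TMM method. Hepatocyte transcripts were present in every mouse, with Alb between 59527 and 133929 CPM. Xist was at 275 to 513 CPM in the females and at most 0.318 CPM in the males. Nnt, part of which is deleted in C57BL/6J, was low in young and old mice alike and did not separate the substrains. The C57BL6/N label of the young mice was therefore not borne out by this gene. Of 2 p53 targets read as a check of the drug, Mdm2 was higher in old females given HDM201 (log2 0.33, SE 0.0768, FDR 0.0350, edgeR quasi-likelihood test with Benjamini-Hochberg adjustment, as for each FDR given) and did not pass in males (log2 0.00, SE 0.0756, FDR 0.998). The other, Cdkn1a, did not pass in females (log2 0.12, SE 0.568, FDR 0.925) or males (log2 2.26, SE 0.739, FDR 0.298), and its larger difference was in males. With such SEs Cdkn1a RNA was resolved poorly. By western blot the study reports p53 and its target p21, the protein of Cdkn1a, as raised in treated livers. It also reports a set of p53 target genes as significantly higher in treated females. In bulk tissue, fewer cells of a type cannot be told apart from less RNA per cell.

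Apoa1, Apoc3, Apoa4 and Apoa5 lie side by side, in that order, on chromosome 9 (GRCm38, the assembly of mm10). In the GENCODE annotation Apoa1 spans 46228580 to 46230466 on the plus strand, and Apoc3 spans 46232933 to 46235636 on the minus strand. Apoa4 spans 46240696 to 46243459 and Apoa5 46268633 to 46271919, both on the plus strand. Lipc lies on the same chromosome at 70798128 to 70952226. The remaining genes lie elsewhere, Apob on chromosome 12, Mttp on chromosome 3, Apoe on chromosome 7, Lcat on chromosome 8 and Scarb1 on chromosome 5. All 10 are protein-coding.

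Promoter sequences from RefSeq (GRCm38.p6) were matched for 8 of the 10 genes, with no entry for Apoc3 and Scarb1. The sequences before Apoa4 and Apoa5, the members of the chromosome 9 cluster that passed the test with HDM201, are shown beside that of Apoa1, which did not. Each runs 5′ to 3′ on the plus strand and ends at the base before the earliest start that RefSeq or GENCODE gives. Capitals mark CAAAGTNCA, a form of the core letters bound by the nuclear receptor HNF4, or the TATA box letters TATAAA.
Apoa4, chr9:46240594-46240695: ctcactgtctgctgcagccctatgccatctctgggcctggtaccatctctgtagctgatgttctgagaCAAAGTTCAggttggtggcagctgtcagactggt
Apoa5, chr9:46268358-46268607: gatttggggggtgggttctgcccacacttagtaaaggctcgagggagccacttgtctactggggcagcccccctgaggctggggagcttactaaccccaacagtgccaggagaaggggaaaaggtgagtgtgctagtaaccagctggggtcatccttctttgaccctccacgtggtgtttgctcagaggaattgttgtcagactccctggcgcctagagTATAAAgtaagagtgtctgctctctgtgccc
Apoa1, chr9:46228380-46228579: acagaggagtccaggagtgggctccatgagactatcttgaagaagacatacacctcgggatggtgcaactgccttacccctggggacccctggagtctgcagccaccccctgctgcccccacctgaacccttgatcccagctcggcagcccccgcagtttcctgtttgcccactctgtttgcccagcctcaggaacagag

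The HNF4 letters were found, on either strand, in the 250 bases before the RefSeq start of 1 of the 8 genes, Apoa4. Only these exact letters were searched, so an HNF4 site with other letters would be left unmarked. The search therefore cannot tell whether Apoa1 or the other genes lack such a site. There they lie 182 to 174 bases before the RefSeq start, which itself is 148 bases after the GENCODE start. Of 32851 promoter records of all genes, 1.19% hold them. TATAAA was found in records of Apoa5, Apob and Apoe, and in 12.4% of all records. For Apoe the record with the letters, chr7:19698622-19698871 on the minus strand, lies inside the gene, downstream of its GENCODE start at 19699188. The Apoe record that ends at that start holds no TATAAA. The letters of a sterol element (TCACNCCAC) and of the p53 decamer had no match in the records of the 8 genes, and were found in 1.05% and 7.13% of all records.

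Per transcript length, the order of the genes was much alike from mouse to mouse. In FPKM, which the authors computed for 29 mice including 2 males without counts, Apoe was highest in every mouse, at 11592 to 32679. Apoa1 (5065 to 12742 FPKM) and Apoc3 (3121 to 9144 FPKM) took ranks 2 and 3 in every mouse. Below these stood Apob (661 to 899 FPKM), Apoa5 (255 to 2069 FPKM), Lcat (241 to 458 FPKM) and Apoa4 (71.5 to 592 FPKM), which took ranks 4 to 8. Over the mice, the range of Apob overlapped that of Apoa5 but not those of Lcat and Apoa4. Lipc (53.6 to 245 FPKM), Mttp (50.0 to 100.04 FPKM) and Scarb1 (43.6 to 85.7 FPKM) were the least abundant, in ranks 7 to 10. The lowest values of Apoe, Apoc3, Apoa5 and Mttp were all those of young vehicle male 5, which has no counts. FPKM and CPM followed each other most closely for Apoa4 over the 27 mice with both (Pearson r 0.99) and less for Apoa5 (r 0.65). Every test below rests on counts, and FPKM are set beside them without a test.

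**Figure D1:**
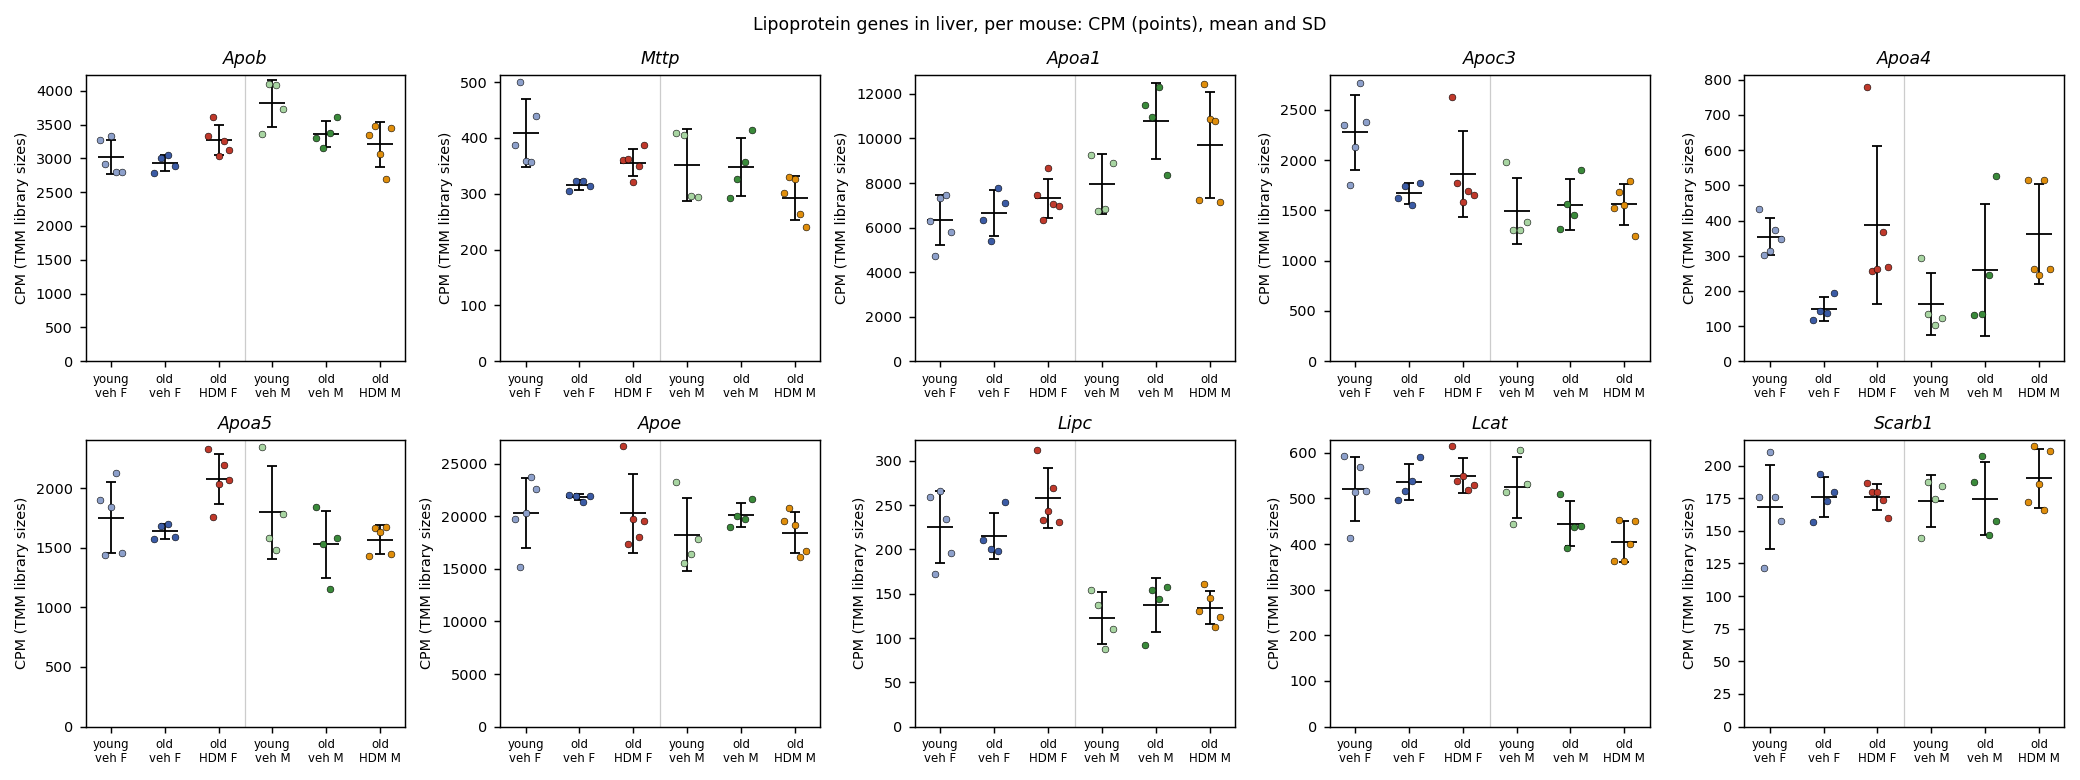
Each panel plots 1 gene, with 1 point per mouse in CPM on an axis from 0, the horizontal bar at the group mean and the error bar at 1 SD, for young vehicle, old vehicle and old HDM201 females and males. Apoa4 in old vehicle females (119 to 195 CPM) lies below young vehicle and old HDM201 females, and Lipc lies higher in females than in males in each of the 3 states.

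To ask what the MDM2 inhibitor did to these genes in aged liver, treated and vehicle-treated old mice were compared within each sex. In old females Apoa4 and Apoa5 rose, 2 of the 10 genes, and none fell, where 5.25% of all 14445 genes tested passed and 2.35% rose (FDR under 0.05). In old males 0 of the 10 passed with edgeR, where 0.00709% of 14109 genes did (1 gene). At an unadjusted p under 0.05 the count in males was 0 as well, against 12.1% of all genes, and DESeq2 called 0. Over the 10 genes the median log2 fold change was 0.15 in females and -0.04 in males, beside 0.00 and 0.01 over all genes tested.

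Apoa4 changed most. It was at 119, 144, 136 and 195 CPM in the 4 old vehicle females and at 779.6, 257, 264, 368 and 267 CPM in the 5 old females given HDM201. Every treated female was above every vehicle female, and treated female 1 stood far above the other treated mice. The fold change was 2.60 (log2 1.38, SE 0.320, FDR 0.0334). Without treated female 1 the change was smaller and still passed (log2 0.95, SE 0.160, FDR 0.0172). The call was lost without any of the 4 vehicle females, with FDR between 0.0548 and 0.103, and without treated female 4 (FDR 0.0686), while the log2 fold change stayed between 0.95 and 1.54 whichever mouse was left out. It was also lost with all 6 groups in a single fit (log2 1.38, FDR 0.0684).

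In males Apoa4 did not separate the groups. The 4 old vehicle males were at 130.3, 133, 246 and 528 CPM and the 5 treated males at 516, 263, 246, 516 and 261 CPM. Vehicle male 5 was the highest of all 9 old males, and the ranges overlapped (log2 0.49, SE 0.424, FDR 0.662). Without that mouse the difference was larger and still did not pass (log2 1.09, FDR 0.541). The HDM201 effect in females minus that in males was 0.91 on the log2 scale (SE 0.577, FDR 0.427) and did not pass.

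Apoa5 rose less. It was at 1573, 1683, 1701 and 1593 CPM in old vehicle females and at 2325, 1759.8, 2032, 2191 and 2065 CPM in treated females, and the groups did not overlap. The fold change was 1.26 (log2 0.33, SE 0.0871, FDR 0.0488). Its FDR crossed the threshold when any 1 of 8 of the 9 mice was left out, all except treated female 2 (FDR 0.0625 to 0.125), and in the fit of all groups (FDR 0.196), with a log2 fold change of 0.29 or more in each. In males it was at 1841, 1535, 1156 and 1582 CPM with vehicle and at 1433, 1662, 1631, 1669.9 and 1447 CPM with HDM201, and these ranges overlapped (log2 0.04, SE 0.135, FDR 0.917).

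The other genes of the set did not pass with HDM201. In females their log2 differences lay between -0.11 for Apoe (SE 0.125, FDR 0.641) and 0.25 for Lipc (SE 0.107, FDR 0.188). Mttp was at 305 to 323 CPM with vehicle and 321 to 387 CPM with HDM201 in females (log2 0.16, SE 0.0661, FDR 0.166), and at 292 to 414 and 240.4 to 330.0 CPM in males (log2 -0.24, SE 0.125, FDR 0.456). Its effects had opposite signs in the sexes, and the difference between them was 0.41 (SE 0.149, FDR 0.146). Apob, the particle's structural protein, had log2 0.15, SE 0.0763, FDR 0.276 in females and log2 -0.06, SE 0.119, FDR 0.867 in males. For the difference between sexes 0 of the 10 passed with edgeR, where 0.107% of 14974 genes did. At an unadjusted p under 0.05 the count was 1 (Mttp), against 18.5% of all genes, and DESeq2 called 0.

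**Figure D2:**
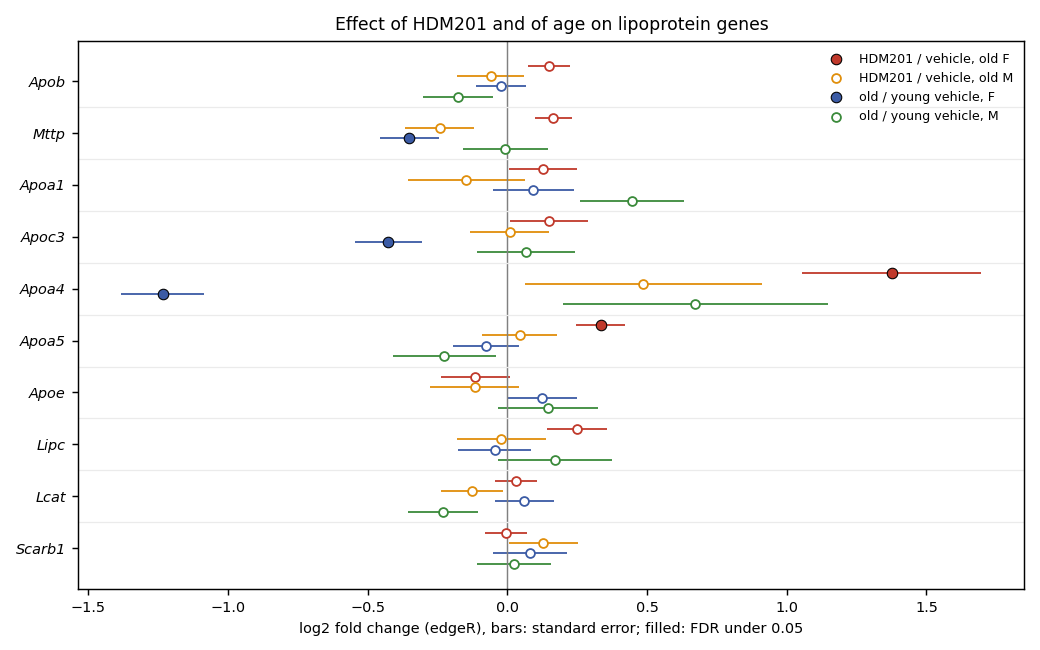
Points give the log2 fold change of each gene in 4 comparisons, with bars of 1 standard error and filled points for an FDR under 0.05. The 5 filled points are Apoa4 and Apoa5 above 0 with HDM201 in females and Apoa4, Apoc3 and Mttp below 0 with age in females.

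To ask how the genes differ with age, old and young vehicle mice were compared within each sex. In females Apoa4, Apoc3 and Mttp fell, 3 of the 10, and none rose, where 31.8% of all 14233 genes passed and 15.0% fell. In the counts the other 7 genes had log2 differences between -0.08 (Apoa5) and 0.12 (Apoe). In males 0 of the 10 passed with edgeR, where 3.69% of 13755 genes did. At an unadjusted p under 0.05 the count in males was 1 (Apoa1), against 21.9% of all genes, and DESeq2 called 0.

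Young vehicle females held 433, 301, 313, 373 and 349 CPM of Apoa4, above each of the 4 old vehicle females. The old level was 0.425 times the young level (log2 -1.23, SE 0.148, FDR 1.34e-04). The call held in each fit with 1 mouse left out. The female comparisons of age and of HDM201 share the 4 old vehicle females, so the opposite signs of Apoa4 in them are not independent of each other. Set side by side, the mean was 354 ± 52.9 CPM (SD, n = 5) in young vehicle, 148 ± 32.9 CPM (n = 4) in old vehicle and 387 ± 224 CPM (n = 5) in old HDM201 females.

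In males Apoa4 was at 294, 135, 102 and 122 CPM in young vehicle mice, and the ranges of young and old overlapped (log2 0.67, SE 0.474, FDR 0.444). Without old vehicle male 5 the difference was near 0 (log2 0.08, FDR 0.933), and without young vehicle male 1 it was larger (log2 1.12, FDR 0.178). In FPKM the male without counts of the old vehicle group, male 1, had 110.3, within the 99.6 to 368 of the others. Young vehicle male 5, also without counts, had 219 FPKM, above the 71.5 to 203 of the others. The study's methods state that 1 young male was left out because of an open wound and a suspected infection. Whether it was this mouse is not stated.

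The age effect on Apoa4 in females minus that in males was -1.90 on the log2 scale (SE 0.525, FDR 0.0507) and narrowly missed the threshold. None of the 10 passed with edgeR, where 3.92% of 14721 genes did, and at an unadjusted p under 0.05 the count was 2 (Apoa4 and Apoc3), against 21.5% of all genes. Apoa4 passed with RLE size factors (FDR 0.0495), with DESeq2 (FDR 0.0233), with no filter on low counts (FDR 0.00855) and with all 6 groups in a single fit (FDR 0.0450). Leaving out old vehicle male 5 gave a smaller difference (log2 -1.29, FDR 0.0931), and leaving out young vehicle male 1 a larger one that passed (log2 -2.35, FDR 0.00912).

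Apoc3 was at 2349, 1748, 2132, 2772 and 2383 CPM in young and at 1619.7, 1739, 1550.3 and 1775 CPM in old vehicle females. Young female 2 fell within the old range, and the other 4 lay above it (log2 -0.43, SE 0.120, FDR 0.0173). Without old vehicle female 1 it no longer passed (log2 -0.41, FDR 0.0502). With HDM201 the females had 2624, 1774, 1582, 1691 and 1650.2 CPM, of which only female 1 stood clearly above the old vehicle females (log2 0.15, SE 0.139, FDR 0.571).

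Mttp was at 387, 500.4, 359, 357 and 439.9 CPM in young and at 305, 322, 323 and 314 CPM in old vehicle females, with no overlap (log2 -0.35, SE 0.105, FDR 0.0223). The call was lost without old vehicle female 1 (FDR 0.0651) or 4 (FDR 0.0535). Apoa1 in males was at 9278, 6751, 6842 and 8915 CPM in young and at 11482, 10949, 12309 and 8347 CPM in old vehicle mice. These ranges overlapped through old vehicle male 5, and the difference did not pass (log2 0.45, SE 0.187, FDR 0.197).

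Apoe, the most abundant of the genes, passed in none of the 9 comparisons in the edgeR fit reported, and neither did Apob and Scarb1. Apob passed in some alternative fits of females against males, given below. The group means of Apoe lay between 18269 ± 3476 CPM in young vehicle males and 21838 ± 318 CPM in old vehicle females (SD, n = 4 each). The 4 old vehicle females were at 22080.4, 21958, 21371 and 21944 CPM, a narrow range beside 15141 to 23777 CPM in the 5 young vehicle females. Group means of Scarb1 lay between 168 and 190.2 CPM, with SDs of 9.93 to 32.4 CPM.

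The authors' FPKM, set by group and not tested, departed from the counts for some of these genes in females. Apoa5 was at 717 to 1047 FPKM in young vehicle, 1363 to 1522 FPKM in old vehicle and 1428 to 2069 FPKM in old HDM201 females. In this unit the old vehicle females were thus above the young ones with no overlap, where counts overlapped, and overlapped the treated ones, where counts did not. Apoe was at 17087 to 24911 FPKM in young and 27782 to 29622 FPKM in old vehicle females, again with no overlap. Mttp was at 69.9 to 100.04 and 66.6 to 72.3 FPKM in these groups, which overlapped. Apob was at 730 to 765 FPKM in old vehicle and 773 to 871 FPKM in old HDM201 females. These did not overlap, where counts did. For Apoa4 the old vehicle females, at 104 to 159 FPKM, lay below both the young (216 to 308 FPKM) and the treated females (204 to 592 FPKM), as in the counts.

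Within the cluster, the other genes had smaller log2 differences than Apoa4 in females. With HDM201 these were 0.13 (Apoa1), 0.15 (Apoc3) and 0.33 (Apoa5), and with age 0.09, -0.43 and -0.08. Of all reads on the 4 genes, Apoa4 took 2.70% to 3.94% in young vehicle females, 1.22% to 1.83% in old vehicle females and 2.10% to 5.90% in old HDM201 females. The old vehicle females did not overlap either other group, and this share does not depend on the scaling of library sizes. Beyond Apoa5 lies Zpr1, whose start is 32.4 kb from that of Apoa4, and which rose with HDM201 (log2 0.52, SE 0.135, FDR 0.0481) and fell with age (log2 -0.43, SE 0.155, FDR 0.0487) in females. Bud13, at 42.3 kb, fell with age in females (log2 -0.39, SE 0.137, FDR 0.0452) and did not pass with HDM201 (log2 0.14, SE 0.110, FDR 0.480). On the other side Sik3 rose with HDM201 (log2 0.29, SE 0.0725, FDR 0.0412) and fell with age (log2 -0.26, SE 0.0818, FDR 0.0264) in females. These neighbours were taken from the annotation, and none of the 3 passed in males in either comparison. The alternative fits were kept for the members only, so whether the calls of these neighbours hold in them is not known.

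**Figure D3:**
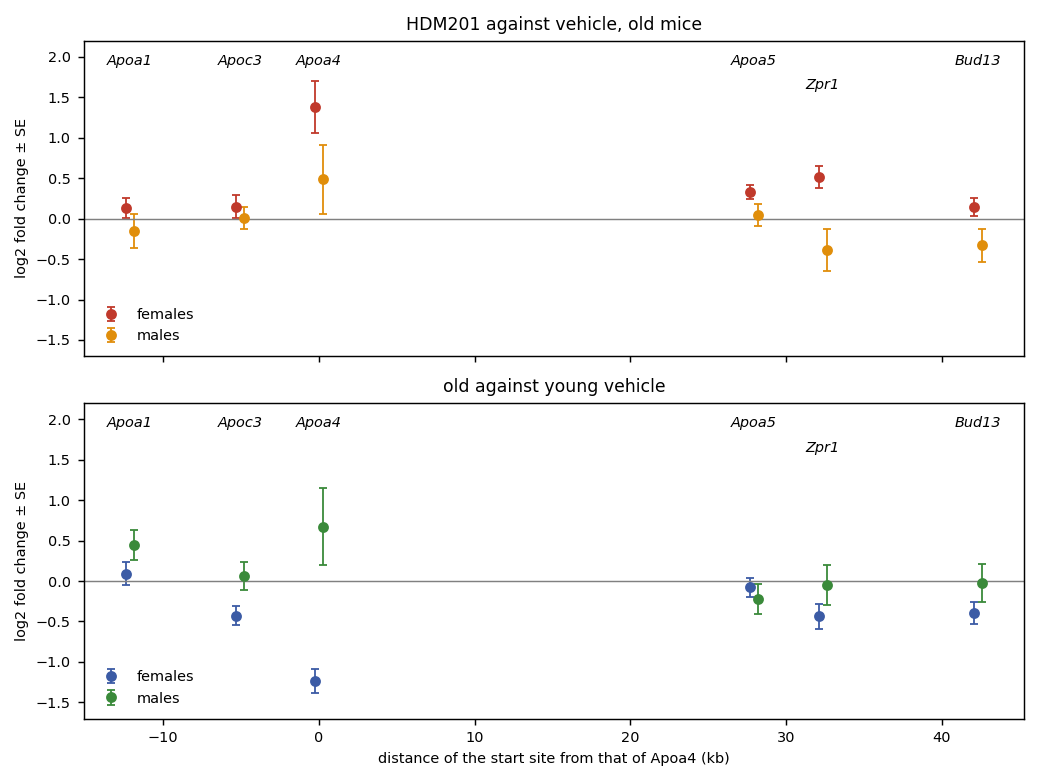
Log2 fold changes with bars of 1 standard error are drawn against the distance of each gene's start from that of Apoa4 in kb, for HDM201 and for age, in females and males. Apoa4 is the farthest from 0 of the genes in females in both comparisons, at 1.38 and -1.23.

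Apoa4 is also made by the intestine, and markers of that tissue were therefore followed. The summed level of the 5 intestinal markers was 30.1 to 52.9 CPM in young vehicle, 17.8 to 28.0 CPM in old vehicle and 30.3 to 55.2 CPM in old HDM201 females. It moved with Apoa4, and 1 of the 5 markers carried it in each female comparison, Fabp2, a fatty acid binding protein. Fabp2 rose with HDM201 (log2 0.90, SE 0.171, FDR 0.0155) and fell with age (log2 -0.97, SE 0.157, FDR 8.15e-04) in females. Of the other 4 markers Alpi was at 0 in all 27 mice, Cdx2 in 25 and Lct in 19, and Vil1 reached at most 1.91 CPM. The part of intestinal RNA in the Apoa4 result was not tested.

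Macrophage markers moved with the female groups as well. Their summed level over 11 genes was 241 to 367 CPM in young vehicle, 390.03 to 825 CPM in old vehicle and 248 to 406 CPM in old HDM201 females. In females 10 of the 11 rose with age and 8 fell with HDM201. Of all genes tested in females, 31.8% passed with age (15.0% lower) and 5.25% passed with HDM201, shares that also apply to the lists below. Lists of other cells moved too, at lower sums. B and plasma cell markers were at 3.34 to 4.21, 15.9 to 27.1 and 7.62 to 18.4 CPM in the same order of groups, with 4 of 5 higher with age and 1 lower with HDM201. Dendritic cell markers were at 4.88 to 7.03, 9.32 to 14.6 and 6.04 to 10.01 CPM, with 2 of 5 higher with age. Cholangiocyte markers were at 6.65 to 10.3, 9.71 to 16.2 and 15.1 to 25.9 CPM, with 1 of 5 higher in each comparison. Pancreas markers were at 12.7 to 18.2, 5.51 to 6.64 and 6.60 to 7.42 CPM, with 1 of 4 lower with age. Cela1 alone carried this sum, as Cpa1 and Pnlip were at 0 in all 27 mice and Prss2 in 25. The sum is therefore not a measure of pancreatic RNA. T and NK cell markers were at 1.61 to 3.78, 4.53 to 5.26 and 2.33 to 5.10 CPM. Neutrophil markers were at 0 to 1.26, 2.33 to 20.3 and 2.61 to 4.15 CPM. Erythroid markers were at 144 to 178, 148 to 224 and 16.1 to 149 CPM. The ranges of endothelial, stellate cell and adipose markers overlapped between these groups. The part of these cells in the results on lipoprotein genes was not tested. Hepatocyte markers summed to 104717 to 116141 CPM in young vehicle, 97519 to 123258 CPM in old vehicle and 103491 to 136613 CPM in old HDM201 females. Of the 7, 0 passed with HDM201 and 3 fell with age in females. The gene that overlaps Apoa4, Gm47528, had 715 counts over all mice beside 147989 for Apoa4. Whether counting used the strand is not stated.

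Females and males were compared in each of the 3 states, and hepatic lipase was higher in females in all 3. In young vehicle mice Lipc was at 259, 173, 266, 235 and 196 CPM in females and at 154, 137, 87.9 and 110.3 CPM in males. In old vehicle mice it was at 211, 200.2, 198 and 254 CPM in females and at 91.9, 154, 144 and 158 CPM in males. In old HDM201 mice it was at 313, 233, 244, 269.6 and 231 CPM in females and at 131, 161, 146, 112 and 123 CPM in males. No female overlapped the males of the same state. The log2 differences were 0.87 (SE 0.175, FDR 0.00941), 0.65 (SE 0.162, FDR 0.0220) and 0.93 (SE 0.117, FDR 2.15e-04). In old vehicle mice the call was lost, with an FDR just past the threshold, without old vehicle female 1, and without female 4 (FDR 0.0647). It held in the other alternative fits of all 3 states.

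In young vehicle mice 3 of the 10 genes passed and all were higher in females, where 10.5% of all 13875 genes passed and 5.63% were higher. Beside Lipc these were Apoa4 (log2 1.10, SE 0.268, FDR 0.0229) and Apoc3 (log2 0.59, SE 0.167, FDR 0.0424). Each of the 5 young females was above each of the 4 young males in Apoa4, of which male 1 came closest. Without that mouse the difference was larger (log2 1.55, FDR 5.73e-05). The Apoa4 call was lost without young male 2, 3 or 4 or young female 1 (FDR 0.0537 to 0.0753) and with all groups in a single fit (FDR 0.0530).

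Apoc3 was at 1982, 1310.1, 1302 and 1383 CPM in young males, and its call was lost when any 1 of 7 of the 9 mice was left out (FDR 0.0559 to 0.114), all except young male 1 and young female 2. Apob was at 2798 to 3325 CPM in young females and 3356 to 4100.3 CPM in young males. These ranges did not overlap, but the difference missed the threshold (log2 -0.35, SE 0.118, FDR 0.0764). It passed with DESeq2 (FDR 0.00546), with all groups in a single fit (FDR 0.0127) and without young male 1 (FDR 0.0392).

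In old vehicle mice 2 of the 10 passed, Lipc higher and Apoa1 lower in females, where 18.0% of 14088 genes passed. Apoa1 was at 6326, 5394, 7794 and 7081 CPM in old vehicle females, below each of the old vehicle males (log2 -0.70, SE 0.155, FDR 0.0144), and the call held in every alternative fit. In young mice and in HDM201 mice Apoa1 did not pass (log2 -0.34, SE 0.169, FDR 0.209 and log2 -0.41, SE 0.178, FDR 0.129). The sign of Apoa4 was the reverse of that in young mice, without passing (log2 -0.81, SE 0.406, FDR 0.193). Without old vehicle male 5 that difference was nearer to 0 (log2 -0.20, FDR 0.628).

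In old HDM201 mice 3 of the 10 passed and all were higher in females, where 17.4% of 14187 genes passed and 8.92% were higher. These were Lipc, Lcat (log2 0.43, SE 0.0942, FDR 0.00811) and Apoa5 (log2 0.40, SE 0.104, FDR 0.0206). Lcat was at 616, 538, 549.8, 519 and 529 CPM in females and at 362, 453, 362, 399.7 and 449.9 CPM in males, with no overlap. In young vehicle mice its means were 521 ± 69.6 CPM (SD, n = 5) and 524 ± 66.3 CPM (n = 4), with no call (log2 -0.02, SE 0.129, FDR 0.926). In old vehicle mice the difference of Lcat lay between these values and did not pass (log2 0.27, SE 0.0980, FDR 0.0866). Each treated female was above each treated male in Apoa5.

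**Figure D4:**
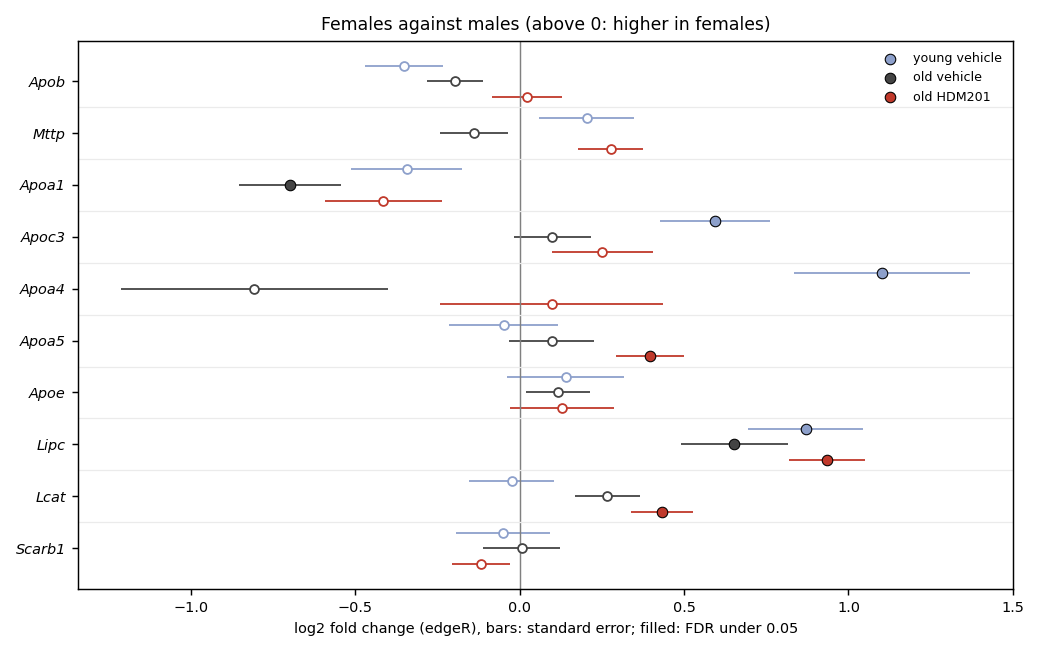
Points give the log2 difference of females against males for each gene in the young vehicle, old vehicle and HDM201-treated groups, with bars of 1 standard error and filled points for an FDR under 0.05. Lipc is filled and above 0 in all 3 states (0.87, 0.65 and 0.93), and Apoa4 is filled in young mice.

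Other genes of the pathway were read from 6 lists of 84 genes in all. Their calls rest on the edgeR fit reported and were not followed in the alternative fits. With HDM201 in females 3 of the 80 tested rose and 3 fell, beside the 5.25% of all genes that passed and 2.35% that rose. The 3 that rose, all from the list of sterol and phospholipid export, were Abcg8, which pumps sterols into bile together with Abcg5 (log2 0.79, SE 0.182, FDR 0.0321), Abcb4, which moves phosphatidylcholine into bile (log2 0.52, SE 0.0865, FDR 0.00999), and Soat2, which esterifies cholesterol (log2 0.38, SE 0.0882, FDR 0.0343) and was named after its value was seen. Abcg1, which exports cholesterol to high-density lipoprotein and is also expressed by macrophages, fell (log2 -0.78, SE 0.138, FDR 0.0112). Ces1d, a hydrolase that mobilises stored triglyceride, fell (log2 -0.53, SE 0.115, FDR 0.0265). Hnf4a, the receptor that binds the HNF4 letters printed above, fell from a mean of 743 to 622 CPM (log2 -0.27, SE 0.0609, FDR 0.0320). It did not pass with age in females (log2 0.23, SE 0.0926, FDR 0.0706) or with HDM201 in males (log2 0.00, SE 0.118, FDR 0.993). The median log2 fold change of the 9 genes on the export list was 0.38, beside 0.00 over all genes tested. That list is named for export but also holds Soat1 and Soat2.

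In males 0 of 81 passed with HDM201 by edgeR, where 1 of 14109 genes did. With age in females 13 of 80 rose and 14 fell, a share near the 31.8% of all genes that passed. Receptors and their regulators rose in 6 of 13 with none falling, led by the fatty acid and lipoprotein receptor Cd36 (log2 2.00, SE 0.121, FDR 2.21e-06), the proteoglycan Sdc1 (log2 0.79, SE 0.106, FDR 2.60e-04) and the very-low-density lipoprotein receptor Vldlr (log2 0.71, SE 0.0943, FDR 2.46e-04). Of assembly and secretion genes 2 rose and 5 fell of 13. The largest changes were in Apobec1, the enzyme that edits Apob mRNA (log2 0.82, SE 0.116, FDR 3.80e-04), the sorting receptor Sort1 (log2 -0.80, SE 0.214, FDR 0.0131) and Aadac, a lipid hydrolase (log2 -0.67, SE 0.0790, FDR 1.21e-04).

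Of lipases and lipid transfer genes 1 rose and 3 fell of 12 with age in females, with lipoprotein lipase, Lpl, higher (log2 1.31, SE 0.173, FDR 2.40e-04) and the endothelial lipase Lipg lower (log2 -1.27, SE 0.278, FDR 0.00451). Of the export list 2 rose and 3 fell of 9, with Soat1 higher (log2 0.93, SE 0.160, FDR 0.00117) and Npc1 (log2 -0.86, SE 0.130, FDR 5.65e-04) and Abcg8 (log2 -0.84, SE 0.172, FDR 0.00304) lower. Of 21 transcriptional regulators 1 rose and 3 fell. Those that changed most were the coactivators Ppargc1b (log2 -1.28, SE 0.280, FDR 0.00445) and Ppargc1a (log2 -0.62, SE 0.177, FDR 0.0175) and the bile acid receptor Nr1h4 (log2 -0.49, SE 0.0984, FDR 0.00291), which all fell. Of 12 other apolipoproteins 1 rose, Apol9a (log2 0.63, SE 0.109, FDR 0.00120). Apoa2, another main protein of high-density lipoprotein, did not pass in any of the 9 comparisons.

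With age in males 6 of 81 rose and none fell, beside 3.69% of all genes that passed. Among them were Sorl1 (log2 2.13, SE 0.377, FDR 0.0187), Apol9a (log2 1.65, SE 0.372, FDR 0.0419), Apol9b (log2 1.07, SE 0.244, FDR 0.0433), Apobec1 (log2 0.95, SE 0.176, FDR 0.0214) and Lsr (log2 0.57, SE 0.0985, FDR 0.0170). Apol9a and Apol9b are close copies, and reads could be split between them. The age effect differed between the sexes for Vldlr (log2 1.45, SE 0.286, FDR 0.0136) and Cd36 (log2 1.15, SE 0.261, FDR 0.0240), as female minus male effects.

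**Figure D5:**
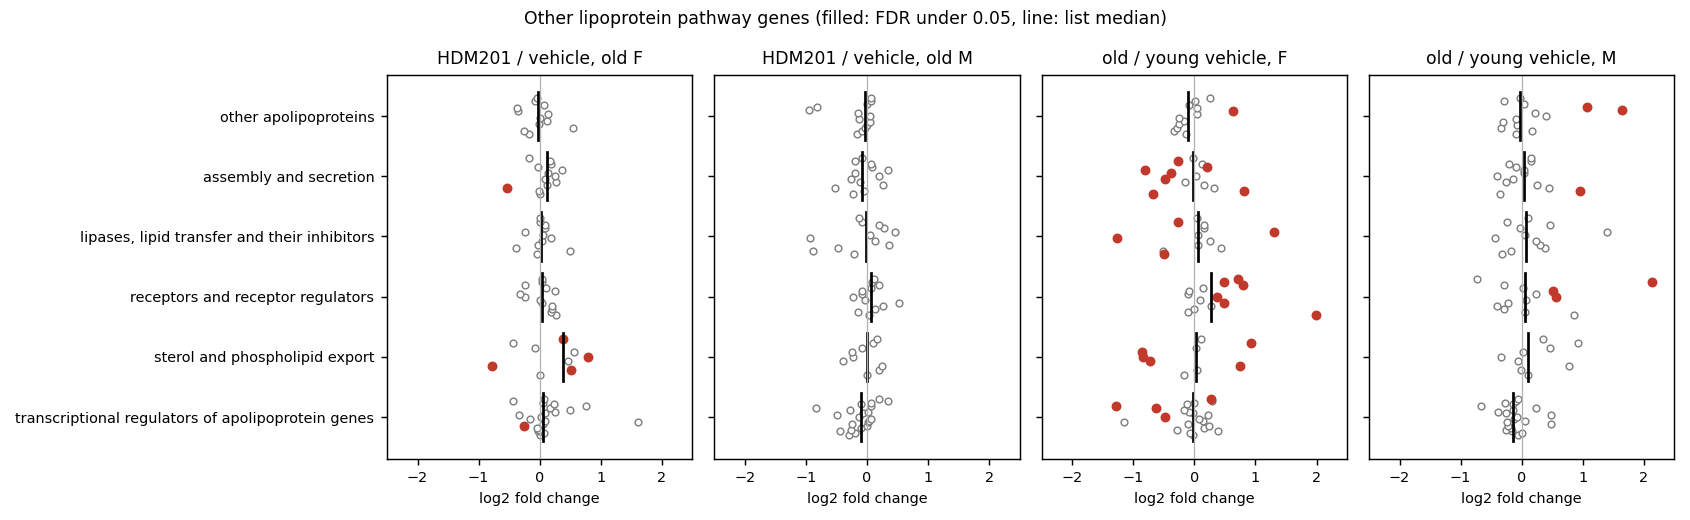
Each point is 1 gene of 6 lists, drawn by its log2 fold change with HDM201 and with age in each sex, with filled points for an FDR under 0.05 and a vertical line at the list median. In females given HDM201 the export list has 3 filled points above 0 and 1 below, and in old females the receptor list has 6 above 0.

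Between females and males, 8 pathway genes were higher and 2 lower in young vehicle females, 14 and 10 in old vehicle females, and 19 and 7 in old HDM201 females, of 80 tested each time, beside 10.5%, 18.0% and 17.4% of all genes that passed. Vldlr was higher in females in each state (log2 1.68, SE 0.203, FDR 3.09e-04, then log2 3.11, SE 0.186, FDR 8.25e-06 and log2 3.04, SE 0.253, FDR 7.38e-06). Clusterin (Clu), an apolipoprotein of high-density lipoprotein, was lower in females in each state (log2 -0.71, SE 0.137, FDR 0.00786, then log2 -0.42, SE 0.0836, FDR 0.00891 and log2 -0.52, SE 0.157, FDR 0.0404). Cd36 was higher in old females with vehicle (log2 1.51, SE 0.202, FDR 0.00135) and with HDM201 (log2 1.76, SE 0.127, FDR 1.98e-06). Abca1, which lipidates apolipoprotein A-I, was lower in old females with vehicle (log2 -0.50, SE 0.0762, FDR 0.00255) and with HDM201 (log2 -0.49, SE 0.0821, FDR 0.00169).

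Across the 27 mice, the genes whose log2(CPM + 1) followed a member most closely were found by Pearson's r over the whole table. For Lipc these were Entpd8 (r 0.92), Pctp (0.92) and Mmd (0.91). For Apoa4 they were Prelid1 (0.75), Eif2d (0.74) and Palmd (0.74). The closest genes were Rmnd5a for Mttp (0.90), Commd1 for Apoc3 (0.88), Agt for Lcat (0.85), Ddrgk1 for Apoe (0.84), Usp47 for Apob (0.83), Ppp2r2d for Apoa5 (0.83), Gm8893 for Apoa1 (0.77) and Eps8l2 for Scarb1 (0.70). Among the members, with each group's mean removed, Apoc3 and Apoe (r 0.80) and Apoa4 and Apoc3 (r 0.75) had the highest r, and Mttp and Lcat (r -0.55) the lowest. These are descriptions over 27 mice that share groups and scaling.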

How the data were processed

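Whole liver was profiled by bulk RNA-seq in 29 mice, of which 27 have counts. Old vehicle male 1 and young vehicle male 5 have FPKM alone. The authors made the deposited read counts by STAR alignment to mm10 in 2 passes, SAMtools filtering and HTSeq, without normalization, and ran DESeq2. Versions and the strand setting are not given in the sources used here. The FPKM values, scaled by the authors with Cufflinks for transcript length and library size, served here for the order of levels and for the mice without counts.

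For each of 9 comparisons, the counts of the groups involved were fitted in edgeR 4.0.16 under R 4.3.3, after filterByExpr (minimum count 10, minimum total 15) and TMM, and quasi-likelihood p-values were adjusted over all genes by Benjamini-Hochberg (threshold 0.05). The SE is the absolute log2 fold change divided by the square root of F. Scripts were tested on simulated data. Alternatives were RLE size factors, DESeq2 1.42.0, no filter, all 6 groups in one fit, a replicate block and each mouse left out. They were kept for the 10 members only. Calls of other genes, such as Mdm2, the chromosome 9 neighbours, the cell markers and the pathway genes, have no such check. The members and lists were chosen with earlier results of these data known. Named beside the 10 members are up to 3 called genes of largest change per list and comparison, genes that check the labels, Hnf4a, Abca1 and Apoa2, chromosome 9 neighbours, and the genes most like each member (mean CPM of at least 1). Replicates are separate mice, and pairs of replicates differed beyond counting noise (chi-square per degree of freedom of at least 12.8 over 48 pairs). No columns were left unmapped. Some genes of the lists are counted but not reported here by name.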

Additional observations from a re-analysis of the deposited data

Results flagged for a closer look

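In 4 of the 60 sets of 1 gene's CPM in 1 group, the highest mouse lay farther from the others than Dixon's 95% limit allows, where chance gives about 1 in 20. Old HDM201 female 1 accounted for 3 of them, at 779.6 CPM of Apoa4 (next highest 368 CPM), 2624 CPM of Apoc3 (next 1774 CPM) and 26695 CPM of Apoe (next 19792 CPM). The other was young vehicle male 1, at 1982 CPM of Apoc3 (next 1383 CPM). Without old HDM201 female 1 the rise of Apoa4 with HDM201 in females was 0.95 on the log2 scale (FDR 0.0172).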

How the results depend on the processing

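Counts of genes of the set that passed changed as follows. With HDM201 in females the count of 2 became 0 with all 6 groups in one fit and 0 with the replicate block (Apoa4 FDR 0.0513, Apoa5 FDR 0.135), and ranged from 0 to 2 with 1 mouse left out. With age in females the count of 3 became 1 (Apoa4) with the replicate block and ranged from 1 to 3 with 1 mouse left out. For females against males, leaving out a mouse gave 1 to 4 in young vehicle mice and 1 to 3 in old vehicle mice. DESeq2 added Apob in old vehicle mice (FDR 0.0446) and Mttp in old HDM201 mice (FDR 0.0391). For the difference of the age effect between sexes, the count of 0 became 1 (Apoa4) with RLE size factors, DESeq2, no filter or all 6 groups in one fit, and ranged from 0 to 2 with 1 mouse left out. The log2 difference of Apoa4 between old HDM201 females and males, 0.10 in the fit reported, ranged from -0.32 to 0.26 with 1 mouse left out. Over 90 values of gene and comparison, 63 of 1420 refits had the other sign, in 24 of the 90, all with an FDR of 0.415 or more in both fits. Deviations of same-numbered mice correlated between -0.22 and 0.22. Differently numbered mice were not set beside them, so these values cannot decide whether replicate numbers pair mice. The replicate block also ended the calls of Apoc3 in young and Apoa5 in old HDM201 mice between sexes (FDR 0.0676 and 0.0693). The cause of these losses was not tested. With 4 or 5 mice a group, changes of Apoa4 in males (SE 0.424 and 0.474 on the log2 scale) were resolved poorly.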
